A study of Mus musculus with 9 samples.

Results

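The genes of MHC class I antigen presentation were followed across 3 ages in sorted hair follicle stem cells of the mouse. They were taken by gene symbol from the deposited expression table and are 9 genes of 37980 rows: H2-K1, H2-D1, H2-M3, H2-T23, B2m, Tap1, Tap2, Tapbp and Nlrc5. All 9 were present, all 9 were above the filter on low values, and the fit held 11509 protein-coding genes. The set was put together with results of these same libraries in view, chosen by the FPKM values over age that are given here, so these values are a description, and the p-values only place each gene among all genes of the fit.

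The cells came from back and belly skin of male C57BL/6J mice aged 3, 19 or 24 months, with no genetic change or treatment named in the labels, and each age had 3 libraries. They were sorted for high CD49f, an integrin that binds basement membrane laminin, and for surface CD34, which together mark the basal stem cells of the follicle bulge. Replicates are numbered 1 to 3 at 3 and 19 months and 2 to 4 at 24 months. Whether libraries of an age came from separate or pooled animals is not in the labels, and p-values here cover the spread between libraries, part or all of which may be technical. In the labels the running numbers form 1 block for 3 months and another for 19 and 24 months together, so batch and age cannot be told apart where 3 months is compared with an older age.

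Values are FPKM, fragment numbers scaled by transcript length and by library size, which can be compared between genes because of the scaling by length. Absolute depth is unknown. FPKM summed to between 553388 and 738569 over the protein-coding rows of a library, and the median tested gene lay between 10 and 11.3 FPKM. Over all rows, whatever the gene type, FPKM summed to between 25022178 and 68767512 in the 3-month libraries. In the 19-month and 24-month libraries it summed to between 8704872 and 20767081, below every 3-month library. What this difference means for the class I values was not tested. Of the bulge genes, Cd34 lay between 403 and 632 FPKM, Itga6 (CD49f) between 72.7 and 117 FPKM and Krt14 between 3235 and 6619 FPKM, while Krt15, a bulge keratin, was listed at 0 in all 9 libraries. A gene is called below where limma's adjusted p (Benjamini-Hochberg over all 11509 genes) is below 0.05, and log2 changes are of FPKM + 1, the older age minus the younger, with their standard error.

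MHC class I molecules show peptides made inside a cell to CD8 T cells. A heavy chain, encoded by H2-K1 or H2-D1 for the classical molecules and by H2-T23 or H2-M3 for nonclassical ones, pairs with beta-2 microglobulin, the product of B2m. Peptides cut by the proteasome enter the endoplasmic reticulum through the transporter formed by TAP1 and TAP2, and tapasin, the product of Tapbp, holds the empty heavy chain beside it, while NLRC5 is a coactivator that acts at the promoters of these genes. Interferon raises the whole set in many cell types, and the growing hair follicle is known as a site of low class I expression.

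Promoter windows of 7 members were in the RefSeq table of build GRCm38.p6, which is not the build of the expression table; Tap2 and Nlrc5 are named only. The 250 bases before the annotated start are shown for H2-M3, the member that was called, for the classical heavy chains H2-K1 and H2-D1, and for B2m. Capitals mark matches, on either strand, to the interferon-stimulated response element (GAAA, any 2 bases, GAAA), TTCNNNGAA (gamma-activated site), the NF-kappaB consensus, CCAAT (Y box core) and TGACG (cAMP response element core, as in the X2 box). The windows are H2-M3 at chr17:37269984-37270233, plus strand, H2-K1 at chr17:34000348-34000597, minus strand, H2-D1 at chr17:35262844-35263093, plus strand, and B2m at chr2:122147437-122147686, plus strand.
H2-M3: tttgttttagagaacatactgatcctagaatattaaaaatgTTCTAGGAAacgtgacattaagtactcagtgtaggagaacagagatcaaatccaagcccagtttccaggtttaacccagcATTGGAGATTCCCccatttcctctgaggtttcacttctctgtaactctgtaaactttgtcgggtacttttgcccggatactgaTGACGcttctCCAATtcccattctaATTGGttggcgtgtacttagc
H2-K1: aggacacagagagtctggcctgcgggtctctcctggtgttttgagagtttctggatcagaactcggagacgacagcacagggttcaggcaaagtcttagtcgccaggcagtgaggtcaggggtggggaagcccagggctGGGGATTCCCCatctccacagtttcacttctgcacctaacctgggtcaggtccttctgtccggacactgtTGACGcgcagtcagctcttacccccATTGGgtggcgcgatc
H2-D1: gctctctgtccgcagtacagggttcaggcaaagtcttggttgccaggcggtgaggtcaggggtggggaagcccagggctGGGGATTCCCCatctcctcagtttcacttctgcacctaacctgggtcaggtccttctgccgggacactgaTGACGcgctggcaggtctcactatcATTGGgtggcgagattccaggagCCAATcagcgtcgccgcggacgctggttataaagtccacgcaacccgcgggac
B2m: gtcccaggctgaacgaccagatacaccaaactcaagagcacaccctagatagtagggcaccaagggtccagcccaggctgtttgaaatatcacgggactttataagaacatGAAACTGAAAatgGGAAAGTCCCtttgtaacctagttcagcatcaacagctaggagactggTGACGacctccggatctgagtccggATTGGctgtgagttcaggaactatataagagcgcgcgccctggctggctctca

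Over the whole window of 300 bases, which runs on to 50 bases after the start, CCAAT was found in 7 of the 7 members and in 37.4% of 32851 promoters. TGACG was found in 5 of 7, namely H2-K1, H2-D1, H2-M3, B2m and Tap1, and in 20.8% of all promoters. The NF-kappaB consensus was found in 4 of 7, H2-K1, H2-D1, H2-M3 and B2m, and in 4.51% of all promoters; in H2-K1 and H2-D1 it matches on both strands in registers 1 base apart. An exact match to the pattern of the interferon-stimulated response element was found in H2-T23 and B2m, 2 of 7, and in 3.44% of all promoters. Elements that depart from this pattern are not counted, so windows without a match cannot be said to lack an interferon element. Of the 7, H2-M3 alone held the gamma-activated site, which 8.3% of all promoters hold, and in H2-M3 a reversed CCAAT overlaps the NF-kappaB match, so that both form 1 run of capitals. These matches describe letters in a window and not bound sites.

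The upstream sequences of the heavy chain genes differ in how much they share. H2-K1 and H2-D1 have an identical run of 47 bases, starting 141 bases before the H2-K1 start and 201 bases before the H2-D1 start, and it carries the NF-kappaB match. H2-M3 shares a shorter run of 11 bases with both, which starts 102 bases before its own start and 91 and 151 bases before the H2-K1 and H2-D1 starts. RefSeq lists 2 starts for H2-K1, and the first was used.
H2-K1 and H2-D1 shared run: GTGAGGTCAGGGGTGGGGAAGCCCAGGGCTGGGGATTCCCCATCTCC
H2-K1, H2-D1 and H2-M3 shared run: GTTTCACTTCT

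**Figure D1:**
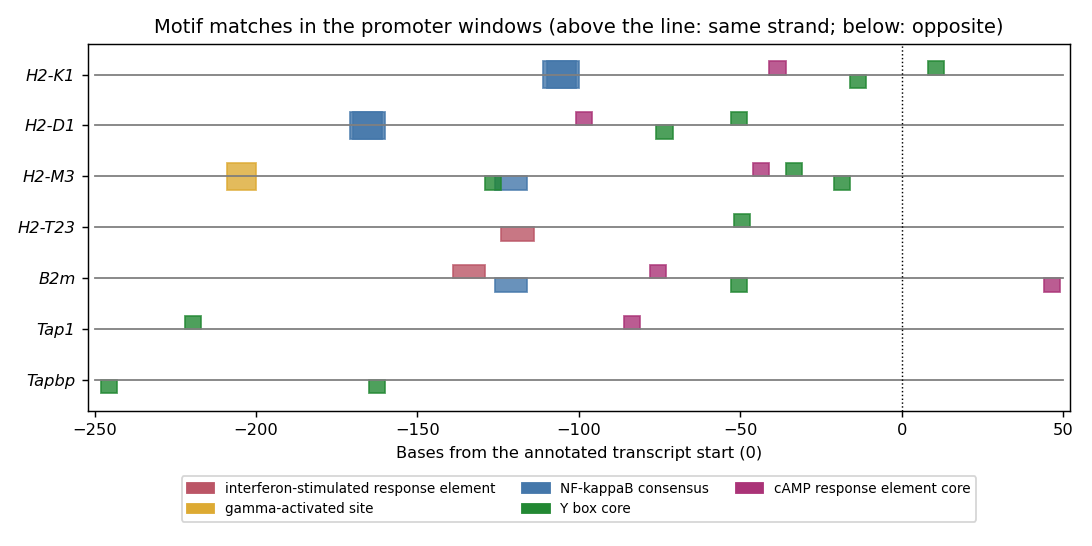
Matches to 5 motifs in the promoter windows of the 7 members with a RefSeq window, by distance in bases from the annotated start; boxes above a line are on the gene's strand and boxes below it on the opposite strand. The Y box core occurs in 7 of 7 windows, and the NF-kappaB consensus in H2-K1, H2-D1, H2-M3 and B2m.

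The 9 genes differed widely in level in these stem cells. By the mean over 9 libraries the order was B2m (1923 FPKM), H2-D1 (640 FPKM), H2-K1 (584 FPKM), H2-T23 (219 FPKM), Tapbp (78.3 FPKM), Tap1 (41.2 FPKM), H2-M3 (19.4 FPKM), Tap2 (16.8 FPKM) and Nlrc5 (13.9 FPKM). B2m stood above H2-D1 in all 9 libraries and higher than 99.7% of the tested genes, and Nlrc5 still stood above 56.9% of them. H2-D1 and H2-K1 are not separated by their spread, since H2-D1 was the higher of the 2 in 6 of 9 libraries; the same holds for H2-M3 against Tap2 and for Tap2 against Nlrc5, each the higher in 6 of 9. H2-K1 over H2-T23, H2-T23 over Tapbp, Tapbp over Tap1 and Tap1 over H2-M3 each held in all 9 libraries without overlap. The transporter genes and Nlrc5 thus lay far below the classical heavy chains and B2m.

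At 19 against 3 months, H2-M3 was the 1 member of 9 called, and it was higher, where 1.56% of all tested genes were called, 0.6% higher and 0.964% lower. At 24 against 3 months H2-M3 was again the 1 member called, where 3.84% of all genes were called, 1.5% higher and 2.34% lower. At 24 against 19 months no member was called in the limma fit, where 0.93% of all genes were called, 0.712% higher and 0.217% lower; 2 members, Tap2 and Tapbp, had an unadjusted p below 0.05, as had 12.8% of all genes, and the fit on all gene types called 0 members too, where it called 0.049% of its 14275 rows. H2-M3 was also the 1 member called in the F test over the 3 ages, which called 4.54% of all genes. Since these contrasts were in view when the set was made, the counts carry no weight of their own.

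H2-M3, a nonclassical heavy chain known for binding N-formylated peptides of bacterial and mitochondrial origin, had 11.6, 11.7 and 9.64 FPKM in the 3-month libraries, 21.6, 30.4 and 24.3 FPKM at 19 months and 20.1, 24.7 and 21.1 FPKM at 24 months. Every library of either older age was above every 3-month library, and the older ages overlapped each other. At 19 months H2-M3 averaged 25.4 ± 4.50 FPKM, against 11.0 ± 1.15 FPKM at 3 months (SD, n = 3 each), 2.32 times as much. It rose by a log2 of 1.13 ± 0.16 (adjusted p = 0.00206, limma), the 37th highest log2 change of the 11509 genes. At 24 months it averaged 21.9 ± 2.41 FPKM, 2.002 times the 3-month mean, a log2 rise of 0.94 ± 0.16 (adjusted p = 0.00581). Between 24 and 19 months the log2 change was -0.20 ± 0.16 (adjusted p = 0.672), so the older ages were not distinguishable by this test. H2-M3 was called in all 9 fits that left out 1 library at 19 against 3 months, with an adjusted p of at most 0.0132, and in all 9 at 24 against 3 months, with at most 0.0239. Here and below, the 9 fits include those without a library of the age outside the comparison. Such fits leave the log2 change as it was and move only the shared estimate of the spread. The fit on all gene types, whose small RNA rows have a far wider spread, called 0.28% of its rows at 19 against 3 months, 0.203% at 24 against 3 months and 0.224% in the F test. There the adjusted p was 0.0362 at 19 against 3 months and 0.0545 at 24 against 3 months, so the second call is lost, as is the call in the F test.

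None of the tested genes nearest to H2-M3 was called. On either side of H2-M3 on chromosome 17, the 3 nearest tested genes in RefSeq order were Znrd1as, Gabbr1 and Ubd, and H2-M2, 9130008F23Rik and Cenpq. Of these H2-M2, itself a class I heavy chain gene, had a log2 change of 0.28 at 19 against 3 months (adjusted p = 0.647, limma) and 0.79 at 24 against 3 months (adjusted p = 0.105), and it averaged 2.76, 3.74 and 5.53 FPKM at 3, 19 and 24 months. H2-M3 is also the heavy chain of the 4 with the least sequence in common with other genes: 0.576% of its 50-base windows, 8 of 1389, occur in a transcript of another gene, H2-T24, in GENCODE M21. For H2-T23 the share was 29.8%, for H2-D1 14.3% and for H2-K1 8.79%, so reads of these 3 may be split with relatives and their levels are less certain.

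H2-K1, a classical heavy chain, had 461, 494 and 484 FPKM in the 3-month libraries, 512, 765 and 582 FPKM at 19 months and 654, 704 and 600 FPKM at 24 months. Every older library was above every 3-month library, and the 3-month libraries lay close together. At 24 months H2-K1 averaged 653 ± 51.9 FPKM, against 480 ± 16.9 FPKM at 3 months (SD, n = 3 each), a log2 difference of 0.44 ± 0.16 that was not called (adjusted p = 0.118, limma). At 19 months the mean was 620 ± 131 FPKM, and the log2 difference from 3 months was 0.35 ± 0.16 (adjusted p = 0.291).

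H2-D1, the other classical heavy chain of this strain, had 586, 735 and 525 FPKM at 3 months, 639, 821 and 677 FPKM at 19 months and 600, 620 and 559 FPKM at 24 months. Its 24-month libraries lay below all 19-month libraries and inside the range of the 3-month ones. At 24 months H2-D1 averaged 593 ± 31.1 FPKM, against 615 ± 108 FPKM at 3 months (SD, n = 3 each), a log2 difference of -0.04 ± 0.16 (adjusted p = 0.909, limma). The log2 difference was 0.22 ± 0.16 at 19 against 3 months (adjusted p = 0.532) and -0.26 ± 0.16 at 24 against 19 months (adjusted p = 0.537).

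H2-T23 encodes Qa-1, which presents leader peptides of other class I heavy chains to the inhibitory receptor CD94/NKG2A of natural killer cells. Its libraries held 194, 226 and 165 FPKM at 3 months, 244, 256 and 233 FPKM at 19 months and 235, 227 and 188 FPKM at 24 months. The 19-month libraries were all above the 3-month ones, and the 24-month libraries overlapped both other ages. At 19 months H2-T23 averaged 245 ± 11.3 FPKM, against 195 ± 30.5 FPKM at 3 months (SD, n = 3 each), a log2 difference of 0.34 ± 0.14 (adjusted p = 0.271, limma). At 24 against 3 months the log2 difference was 0.15 ± 0.14 (adjusted p = 0.568).

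B2m, the light chain shared by all class I molecules, had 1263, 1548 and 1248 FPKM at 3 months, 1544, 3004 and 2422 FPKM at 19 months and 2057, 1779 and 2441 FPKM at 24 months. All 24-month libraries were above all 3-month libraries, while 19 months replicate 1 lay just under the highest 3-month library and the other 19-month libraries were among the 3 highest of all 9. At 24 months B2m averaged 2092 ± 332 FPKM, against 1353 ± 169 FPKM at 3 months (SD, n = 3 each), a log2 difference of 0.62 ± 0.22 that was not called (adjusted p = 0.119, limma). At 19 months it averaged 2323 ± 735 FPKM, and the log2 difference from 3 months was 0.73 ± 0.22 (adjusted p = 0.109). B2m shares no 50-base window with a transcript of another gene. Without 19 months replicate 1 the log2 difference at 19 against 3 months was 1.002 and passed the threshold (adjusted p = 0.0197, limma). Over the fits that left out 1 library this difference ranged from 0.52 to 1.002.

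**Figure D2:**
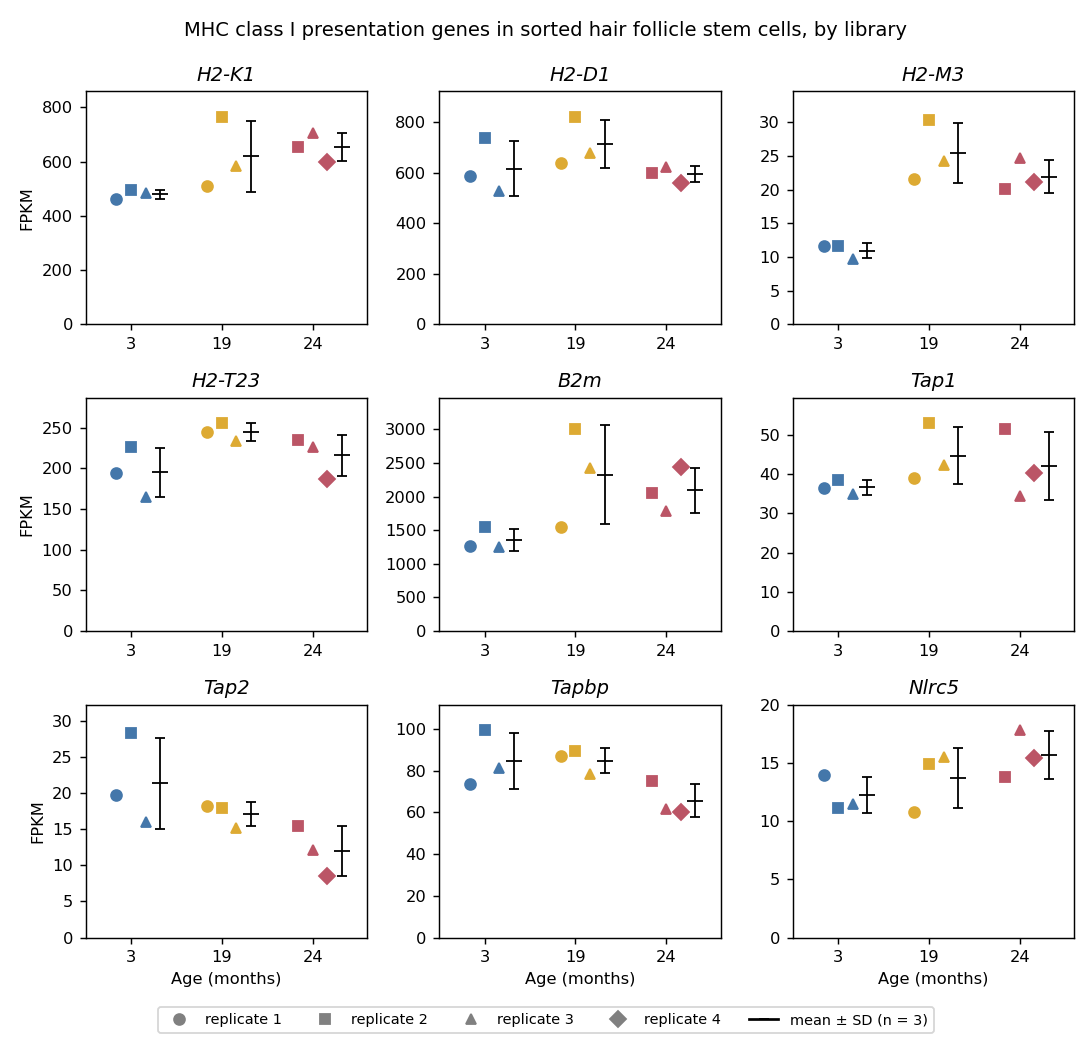
FPKM of the 9 class I genes in each library at 3, 19 and 24 months; symbols give the replicate number and bars the mean ± SD of 3 libraries. H2-M3 lies at 9.64 to 11.7 FPKM at 3 months and at 20.1 to 30.4 FPKM at the older ages, and Tap2 is at 8.51 to 15.5 FPKM in the 24-month libraries.

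None of Tap1, Tap2 and Tapbp, which deliver peptide to the heavy chain, was called in a comparison of ages. Tap1, 1 of the 2 chains of the peptide transporter, had 36.5, 38.5 and 34.9 FPKM at 3 months, 39.0, 53.1 and 42.2 FPKM at 19 months and 51.7, 34.5 and 40.2 FPKM at 24 months. The 19-month libraries were above all 3-month libraries, and the 24-month libraries spanned the whole 3-month range. The log2 difference was 0.27 ± 0.16 at 19 against 3 months (adjusted p = 0.433, limma) and 0.18 ± 0.16 at 24 against 3 months (adjusted p = 0.556).

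Tap2, the other chain, had 19.7, 28.3 and 16.01 FPKM at 3 months, 18.2, 17.9 and 15.2 FPKM at 19 months and 15.5, 12.1 and 8.51 FPKM at 24 months. All 24-month libraries were below all 3-month libraries, by a narrow margin between the nearest libraries. At 24 months Tap2 averaged 12.01 ± 3.47 FPKM, against 21.3 ± 6.31 FPKM at 3 months (SD, n = 3 each), 0.563 times as much. The log2 difference was -0.78 ± 0.21 and missed the threshold (adjusted p = 0.0555, limma). It passed without 3 months replicate 3 and without 24 months replicate 2 (log2 -0.96 and -0.97), and over the 9 fits that left out 1 library its adjusted p ran from 0.0341 to 0.232. At 24 against 19 months the log2 difference was -0.51 ± 0.21 (adjusted p = 0.328).

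Tapbp had 73.4, 99.4 and 81.0 FPKM at 3 months, 87.0, 89.2 and 78.2 FPKM at 19 months and 74.9, 61.7 and 60.2 FPKM at 24 months. Its 24-month libraries were all below the 19-month ones, and 1 of them was above the lowest 3-month library. At 24 months Tapbp averaged 65.6 ± 8.09 FPKM, against 84.6 ± 13.3 FPKM at 3 months (SD, n = 3 each), a log2 difference of -0.36 ± 0.14 (adjusted p = 0.162, limma). At 24 against 19 months the log2 difference was -0.37 ± 0.14 (adjusted p = 0.276), and at 19 against 3 months it was 0.01 ± 0.14 (adjusted p = 0.978). Of the 50-base windows of Tapbp 21% occur in transcripts of other genes, as do 12.6% of those of Tap2 and 6.47% of those of Tap1.

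Nlrc5, the coactivator, is on chromosome 8, away from the H2 region. It had 14.0, 11.2 and 11.5 FPKM at 3 months, 10.8, 14.9 and 15.5 FPKM at 19 months and 13.8, 17.8 and 15.4 FPKM at 24 months. The ages overlapped in each comparison. At 24 months Nlrc5 averaged 15.7 ± 2.05 FPKM, against 12.2 ± 1.55 FPKM at 3 months (SD, n = 3 each), a log2 difference of 0.33 ± 0.17 (adjusted p = 0.270, limma).

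Across the 9 genes, 8 had a log2 difference above 0 at 19 against 3 months, with a median of 0.27, where 50.8% of all tested genes were above 0 and their median was 0.01. At 24 against 3 months 6 were above 0, with a median of 0.18, where 49.5% of all genes were above 0. At 24 against 19 months, where 7.94% of all genes had every older library above every younger one, no member had that pattern; 2 were above 0, with a median of -0.18, and 46.8% of all genes were above 0 and their median was -0.02. The members' median at 19 against 3 months was 0.145 without 19 months replicate 2 and 0.157 with quantile normalization. At 24 against 3 months it was 0.091 without 24 months replicate 2, and at 24 against 19 months it was -0.064 without 19 months replicate 2 and -0.300 without 19 months replicate 1. The libraries of the older age were all above those of the younger in 4 members at 19 against 3 months and in 3 at 24 against 3 months, where 11.0% and 10.6% of all genes had that pattern. They were all below in 1 member at 24 against 3 months and in 2 at 24 against 19 months, where 12% and 10.4% of all genes had it. The 3-month libraries are shared by the comparisons with 19 and 24 months, so these are not separate observations.

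**Figure D3:**
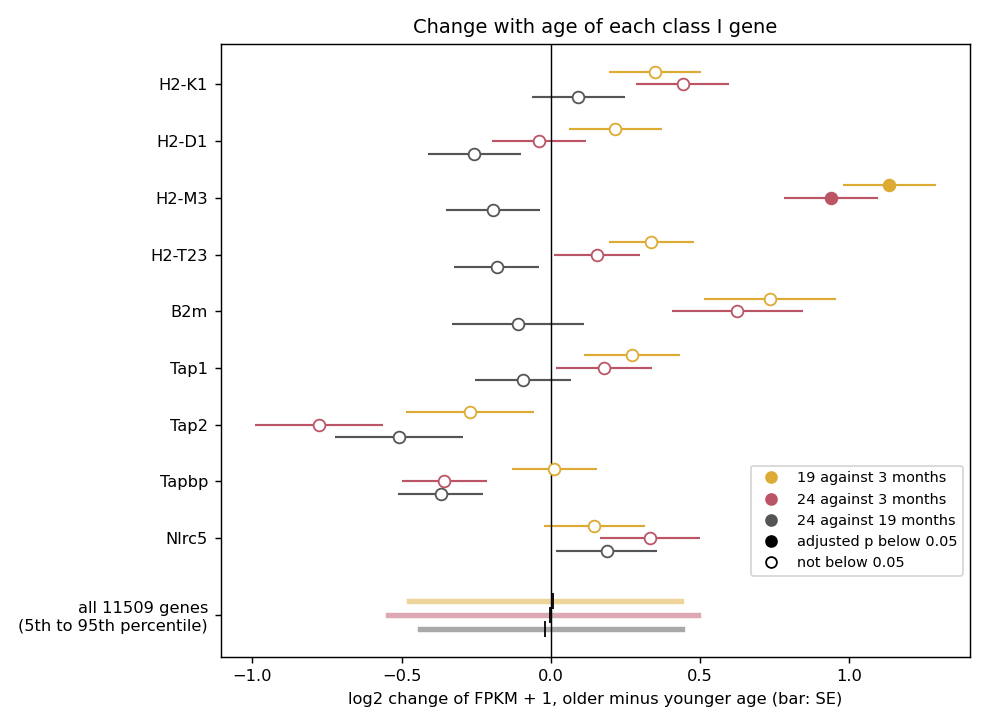
Log2 change of FPKM + 1 (older minus younger age) of each of the 9 genes in 3 comparisons, with the standard error as a bar; filled points have an adjusted p below 0.05, and the lowest rows show the 5th to 95th percentile and median of all 11509 genes. H2-M3 is the 1 gene with filled points, at 1.13 and 0.94, and Tap2 is at -0.78 at 24 against 3 months.

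Single libraries set part of the spread. Within the 3-month libraries, replicate 2 had the highest value of 8 of the 9 genes, where 39.0% of all tested genes were highest there. Within the 19-month libraries, replicate 2 had the highest value of 7 of 9, where 36.8% of all genes were highest there. No library of 24 months led in more than 4. The median-of-ratios shift, which measures the scale of a library, lay between -0.04 and 0.04 on the log2 scale.

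Ratios between members within a library cancel the library's scale, and 4 ratios were compared between 3 pairs of ages by exact two-sided permutation of the log2 ratios, with adjustment over the 12 tests. With 3 libraries against 3 the smallest possible p is 0.1. The ratio of H2-K1 to H2-D1 was 0.787, 0.672 and 0.922 at 3 months, 0.801, 0.932 and 0.860 at 19 months and 1.09, 1.13 and 1.07 at 24 months. In all 24-month libraries H2-K1 was the higher of the 2 classical heavy chains, and in the other 6 libraries H2-D1 was. The log2 ratio was higher by 0.48 at 24 than at 3 months and by 0.35 at 24 than at 19 months (exact p = 0.1 and adjusted p = 0.24 for both).

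TAP1 and TAP2 form the transporter together, as a heterodimer. The ratio of Tap1 to Tap2 was 1.86, 1.36 and 2.18 at 3 months, 2.15, 2.96 and 2.78 at 19 months and 3.34, 2.85 and 4.73 at 24 months. All 24-month libraries were above all 3-month libraries, and the 19-month libraries overlapped both. The mean was 3.64 ± 0.971 at 24 months, against 1.80 ± 0.412 at 3 months (SD, n = 3 each), a log2 difference of 1.01 (exact permutation p = 0.1, adjusted p = 0.24).

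Each classical heavy chain was also set against its light chain. The ratio of H2-D1 to B2m averaged 0.290 ± 0.0598 at 24 months, against 0.453 ± 0.0285 at 3 months (SD, n = 3 each), a log2 difference of -0.66 without overlap (exact permutation p = 0.1, adjusted p = 0.24). At 19 months it averaged 0.322 ± 0.0793, a log2 difference from 3 months of -0.52, again without overlap (exact permutation p = 0.1, adjusted p = 0.24). The ratio of H2-K1 to B2m averaged 0.320 ± 0.0749 at 24 months, against 0.357 ± 0.0352 at 3 months (SD, n = 3 each), and the ages overlapped (exact permutation p = 0.6, adjusted p = 0.655).

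**Figure D4:**
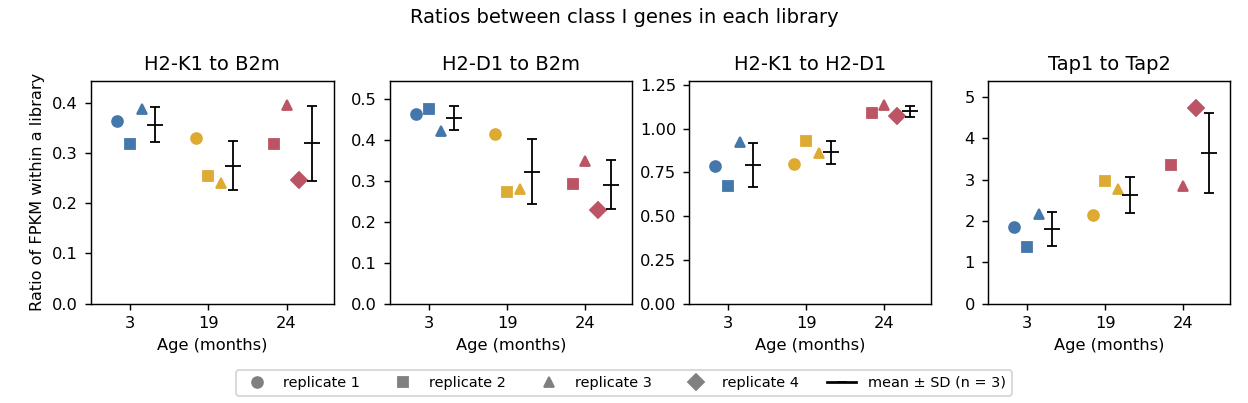
Ratios of FPKM within each library for 4 pairs of class I genes at 3, 19 and 24 months; symbols give the replicate number and bars the mean ± SD of 3 libraries. H2-K1 to H2-D1 is at 1.07 to 1.13 in the 24-month libraries and at most 0.932 elsewhere.

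The other class I heavy chain genes, of the H2-Q, H2-T and H2-M groups, gave no call. Of 20 listed genes, 17 were in the table, 8 were in the fit and 2, H2-M1 and H2-M9, were listed at 0 in all libraries. At 19 against 3 months 8 of 8 had a log2 difference above 0, with a median of 0.36; none was called by limma (smallest adjusted p = 0.127), and 4 of 8 had an unadjusted p below 0.05, as had 15.7% of all tested genes. At 24 against 3 months 6 of 8 were above 0, with a median of 0.43, none was called (smallest adjusted p = 0.104) and 4 of 8 had an unadjusted p below 0.05, as had 21.6% of all genes; the fit on all gene types called 0 of them in both comparisons. H2-Q7, a Qa-2 heavy chain, averaged 42.3 ± 6.52, 65.8 ± 20.6 and 62.3 ± 4.30 FPKM at 3, 19 and 24 months. H2-T22, a nonclassical heavy chain bound by a subset of gamma delta T cells, averaged 42.2 ± 6.08, 60.7 ± 12.3 and 58.9 ± 5.03 FPKM. H2-Q6 and H2-Q7 are close relatives, and reads may be split between them.

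Of 6 class I-like genes outside the H2 region 5 were in the fit and none was called by limma in any comparison, with 1, 0 and 1 of 5 at an unadjusted p below 0.05 at 19 against 3, 24 against 3 and 24 against 19 months. Fcgrt, the neonatal Fc receptor heavy chain, which also pairs with beta-2 microglobulin, averaged 54.4 ± 4.41, 68.1 ± 5.32 and 65.1 ± 4.23 FPKM (SD, n = 3 each) at 3, 19 and 24 months. Its older libraries were all above the 3-month ones (log2 0.32 and 0.25, adjusted p = 0.234 and 0.257, limma). Mr1, which presents vitamin B metabolites, averaged 12.2, 14.4 and 10.5 FPKM, and Azgp1 was listed at 0 in all libraries.

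Among genes that supply and load peptides, 14 of 15 were in the fit. Of these 1 was called, at 24 against 3 months, where 3.84% of all tested genes were called. Pdia3 (ERp57), the thiol oxidoreductase that forms a complex with tapasin, had 138, 120 and 94.99 FPKM at 24 months, against 213, 266 and 161 FPKM at 3 months, with no overlap. It fell by 0.84 ± 0.18 on the log2 scale at 24 against 3 months (adjusted p = 0.0209, limma). The call was lost without 3 months replicate 2 and without 24 months replicate 4 (adjusted p up to 0.107), and in the fit on all gene types (adjusted p = 0.117). Tapbpl, a relative of tapasin, averaged 10.13 ± 0.858 FPKM at 24 months, against 13.3 ± 2.51 FPKM at 3 months (adjusted p = 0.221), also without overlap. In this list 10 of 14 were above 0 at 19 against 3 months and 5 of 14 at 24 against 3 months, with medians of 0.09 and -0.14. Of all tested genes 50.8% and 49.5% were above 0. At 19 against 3 months 6 of 14 had an unadjusted p below 0.05 (limma), 5 of them higher, as had 15.7% of all genes. At 24 against 3 months 7 of 14 had one, 3 higher and 4 lower, as had 21.6% of all genes.

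Of the inducible proteasome subunits, which interferon gamma brings in, Psmb8 and Psmb10 were in the fit and were not called. Psmb8, which lies between Tap1 and Tap2 on chromosome 17, had 22.7, 41.9 and 27.1 FPKM at 19 months, against 16.9, 24.8 and 12.4 FPKM at 3 months (adjusted p = 0.154, limma). Psmb10 averaged 29.8 ± 1.05 FPKM at 19 months, against 19.2 ± 4.35 FPKM at 3 months (adjusted p = 0.0601). Psmb9 is in the table under identifiers that did not match GENCODE M21, so it was not in the fit. In the first of its rows it averaged 21.9, 39.9 and 31.3 FPKM at 3, 19 and 24 months, with every older library above every 3-month one. The fit on all gene types did not call this row at 19 or at 24 against 3 months (adjusted p = 0.175 and 0.252, limma). Psme2, a subunit of the proteasome activator PA28 and the highest of the list after Pdia3, averaged 138, 192 and 160 FPKM at 3, 19 and 24 months (adjusted p = 0.109 at 19 against 3 months).

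Of 14 factors that act at class I promoters, all in the fit, 1 was called, at 19 against 3 months, where 1.56% of all tested genes were called. In that comparison 1 of 14 had an unadjusted p below 0.05 (limma), as had 15.7% of all genes. Irf1, an interferon-induced activator of class I genes, had 20.6, 32.2 and 22.2 FPKM at 19 months, against 9.85, 13.1 and 10.2 FPKM at 3 months. It rose by a log2 of 1.09 ± 0.19 (adjusted p = 0.00827, limma) and was called in all 9 fits that left out 1 library. At 24 months it had 21.2, 19.4 and 15.0 FPKM, again above all 3-month libraries, with a log2 difference of 0.69 ± 0.19 (adjusted p = 0.0528). The fit on all gene types did not call Irf1 at 19 against 3 months (adjusted p = 0.112). Rela and Nfkb1, the NF-kappaB subunits and the highest of the list, averaged 57.4, 64.1 and 54.5 FPKM and 32.1, 37.1 and 35.3 FPKM at 3, 19 and 24 months. The X box factors Rfx5, Rfxap and Rfxank, which NLRC5 works with, were not called in any comparison.

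Among 15 interferon receptors and signal transducers, 14 were in the fit, Irf1 and Irf2 being shared with the promoter factors. Ifngr1, the ligand-binding chain of the interferon gamma receptor, had 31.3, 26.4 and 22.03 FPKM at 19 months, against 51.0, 41.4 and 37.7 FPKM at 3 months, and fell by 0.69 ± 0.16 on the log2 scale (adjusted p = 0.0385, limma). At 24 months it had 44.5, 51.7 and 52.5 FPKM, a log2 rise of 0.89 ± 0.16 against 19 months (adjusted p = 0.0187). Both calls depend on single libraries: 4 and 5 of the 9 fits that left out 1 library kept them, with adjusted p up to 0.198 and 0.0960. The fit on all gene types kept neither (adjusted p = 0.163 and 0.178). Jak1, a kinase at these receptors, averaged 41.5, 34.3 and 30.4 FPKM at 3, 19 and 24 months and was not called. Its 19-month and 24-month libraries were all below the 3-month ones (adjusted p = 0.3675 and 0.0818 against 3 months, limma).

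**Figure D5:**
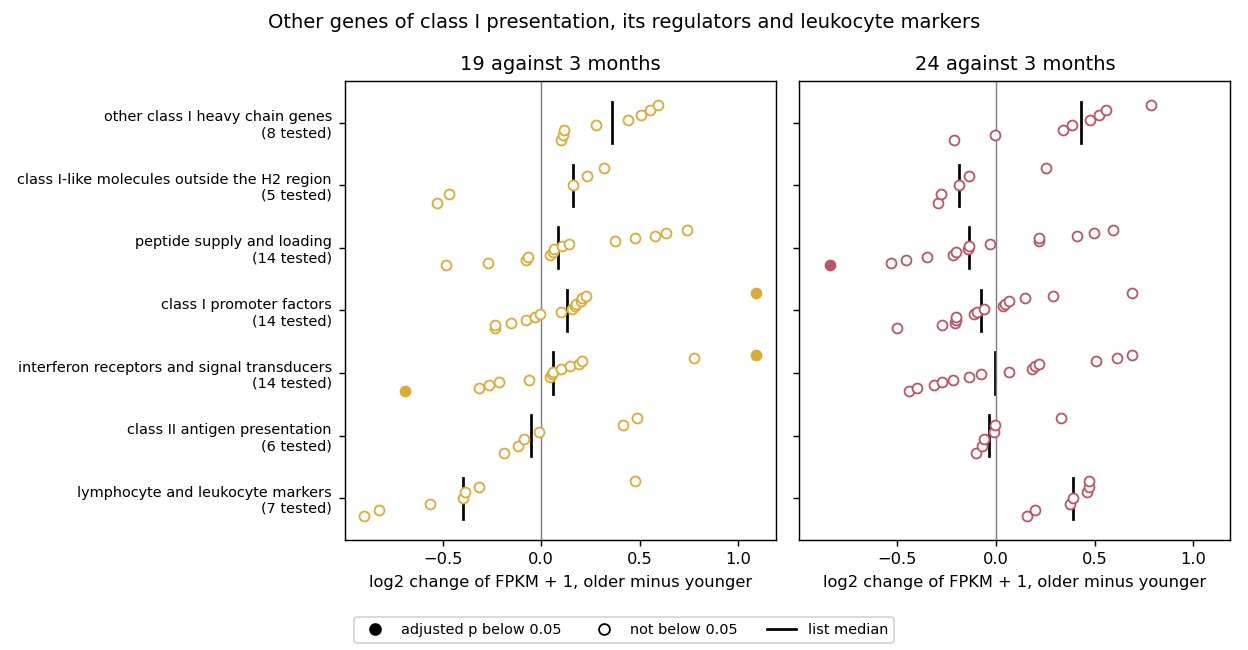
Log2 change of FPKM + 1 of each tested gene in 7 lists at 19 against 3 months and at 24 against 3 months; filled points have an adjusted p below 0.05 and black bars are list medians. The filled points are Irf1 (in 2 lists) and Ifngr1 at 19 against 3 months and Pdia3 at 24 against 3 months; the medians of the other heavy chain genes are 0.36 and 0.43.

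Class II molecules present peptides from outside the cell and are made mainly by professional antigen-presenting cells. Of 11 listed genes 6 were in the fit and none was called by limma in any comparison, with 1 of 6 at an unadjusted p below 0.05 in each. Cd74, the invariant chain, averaged 33.6 ± 18.4, 32.1 ± 14.2 and 30.4 ± 11.2 FPKM (SD, n = 3 each) at 3, 19 and 24 months, and H2-DMb1 averaged 23.6, 33.5 and 30.1 FPKM. H2-Oa and H2-Ob were listed at 0 in all libraries. Of 12 ligands of lymphocyte receptors 4 were in the fit and none was called, nor had any an unadjusted p below 0.05; Cd47 averaged 68.0, 62.6 and 74.1 FPKM, H60c, an NKG2D ligand, 13.9, 14.8 and 11.1 FPKM, and Ulbp1 was listed at 0.

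Leukocytes also carry class I RNA, and in bulk samples a change in the number of cells of a type and a change in RNA per cell cannot be told apart. The summed level of 10 leukocyte markers lay between 30.9 and 35.1 FPKM at 3 months, 19.3 and 30.5 FPKM at 19 months and 35.7 and 57.6 FPKM at 24 months. By mean, H2-M3, B2m, H2-D1, H2-T23, Tap1 and, by 84.8 against 84.6 FPKM at 3 months, Tapbp were highest at 19 months, H2-K1 and Nlrc5 at 24 months and Tap2 at 3 months. The defining marker Ptprc (CD45) was between 0.0756 and 0.620 FPKM in all libraries, Cd8a reached at most 0.109 FPKM and Cd4 at most 0.0419 FPKM, while Cd3e and Cd3g, chains of the T cell receptor complex, reached 9.80 and 12.7 FPKM, both in 24 months replicate 4. Of 7 tested markers 1 was called, Nkg7, higher at 24 against 19 months (log2 1.36 ± 0.25, adjusted p = 0.0208, limma), where 0.93% of all genes were called. The call of Nkg7 was lost without 19 months replicate 2 and without 24 months replicate 4 (adjusted p up to 0.105, limma). It was also lost in the fit on all gene types (adjusted p = 0.219). At that comparison 6 of 7 (Cd3d, Cd3e, Cd3g, Nkg7, Cd52 and Laptm5) had an unadjusted p below 0.05, all higher at 24 months, as had 12.8% of all genes in either direction. At 19 against 3 months 4 of 7 had one, 3 of them lower at 19 months, as had 15.7% of all genes, and at 24 against 3 months 1 of 7 had one, as had 21.6% of all genes. Coro1a and Cd3g were the highest of the list, at 7.30, 10.3 and 8.24 FPKM and 7.38, 4.02 and 8.51 FPKM. The summed level of 9 Langerhans and myeloid markers, mostly Epcam, which the follicle also expresses, was 33.9 to 47.4, 44.3 to 46.8 and 54.5 to 68.0 FPKM at the 3 ages. Cd68, the second highest of the list, averaged 5.98, 5.32 and 7.98 FPKM. Fcer1g fell at 19 against 3 months (log2 -0.90 ± 0.20, adjusted p = 0.0373, limma; lost in 5 of 9 fits that left out 1 library, adjusted p up to 0.123) and rose at 24 against 19 months (log2 1.45 ± 0.20, adjusted p = 0.00403), and the fit on all gene types kept neither call (adjusted p = 0.152 and 0.0923); Lyz2 and C1qa were listed at 0 in 8 of 9 libraries. The part of these cells in the 24-month class I values was not tested.

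Markers of other skin cells also differed with age. Of 6 tested sebaceous markers 5 (Scd1, Far2, Cidea, Elovl3 and Soat1) fell at 19 and at 24 against 3 months and Mgst1 rose at 24 against 3 months. Of 5 melanocyte markers Tyrp1 fell in both of these comparisons, and of 2 endothelial markers both, Egfl7 and Ramp2, fell at 24 against 3 months. Of 9 tested stem cell markers Sox9, Nfatc1 and Cxcl14 rose at 19 against 3 months and Lgr5 fell at 24 against 3 months. None of 2 fibroblast or 6 suprabasal keratinocyte markers was called in any comparison of 2 ages. For comparison, 0.6% of all tested genes were called higher and 0.964% lower at 19 against 3 months. At 24 against 3 months 1.5% were called higher and 2.34% lower, and at 24 against 19 months 0.93% were called. The fibroblast marker Col1a2 was called in the F test over the 3 ages (adjusted p = 0.0495, limma), which called 4.54% of all genes. Its older libraries were all above the 3-month ones. Among the calls between 2 ages, those of Elovl3, Mgst1, Tyrp1, Egfl7, Sox9 and Nfatc1 were lost in at least 1 fit that left out a library (adjusted p up to 0.1496, limma). The fit on all gene types kept the calls of Scd1 and Far2 at 19 against 3 months and of Scd1 and Ramp2 at 24 against 3 months, and none of the other marker calls of this paragraph (adjusted p of 0.0545 to 0.233). The part of these skin cells in the class I values was not tested.

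Among the genes whose profile over the 9 libraries was most like the mean profile of the members were Spryd3, Tgds, Hdac1 and Vdac2. Likeness was measured as the root mean square difference of log2 deviations from a gene's own mean, and it was 0.064 for Spryd3, 0.078 for Hdac1, a histone deacetylase, and 0.081 for Vdac2, a channel of the outer mitochondrial membrane; the median over all other tested genes was 0.282. Spryd3 averaged 35.3 ± 2.79, 43.2 ± 2.97 and 37.1 ± 1.75 FPKM at 3, 19 and 24 months and was not called. Among the members themselves H2-T23 (0.093) and H2-D1 (0.101) were nearest to the mean profile, and B2m (0.29), H2-M3 (0.386) and Tap2 (0.445) were farther from it than the median gene.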

How the data were processed

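RNA of 9 libraries of sorted hair follicle stem cells was quantified by the authors as FPKM, and the deposited table gives 1 FPKM value per row and library. Per the submitters' processing notes the tools were TopHat and Cuffdiff and the build NCBIM37; for versions, settings and use of strand, nothing is stated in the sources used here. Of 37980 rows, 32935 matched GENCODE M21 by Ensembl identifier, which gave gene types. An exact 0 can be a failed estimate: 36 rows of any gene type were listed at 0 in all libraries of an age and at 5 FPKM or more in all of another. The protein-coding ones among them were left out of the protein-coding fit, which held 11509 of the 11511 protein-coding rows above the filter. The fit on all gene types kept all 36.

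From there, limma (version 3.58.1, R version 4.3.3) was run on log2(FPKM + 1) with a mean-dependent prior variance and all 9 libraries in 1 model, on protein-coding rows that reached 1 FPKM in 3 or more libraries. Tests were two-sided with Benjamini-Hochberg adjustment over all genes and a threshold of 0.05; this scale understates changes of low genes. The model was tested on simulated data. The protein-coding fit was preferred because small RNA rows had a median SD within an age of 2.13 on the log2 scale, against 0.21 in protein-coding rows, and share the prior. The members, the gene lists and this choice of fit were made with earlier results of these data known.

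Of each other list, the text names its called genes and, for lists of antigen presentation, its regulators and immune cells, the 2 highest by mean FPKM and those listed at 0; others are named only where a comparison turns on them, chosen after their values were seen. Of the 5 genes most like the mean profile of the members, 1 is not reported here. Other settings tried were all gene types, a pseudocount of 0.1, no filter or 5 FPKM, quantile and median-of-ratios scaling, other priors, fewer libraries, a replicate block and each library left out in turn. Depth per library is unknown, so no interval per read is given.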

Additional observations from a re-analysis of the deposited data

How the results depend on the processing

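H2-M3 was higher in every setting at both older ages against 3 months, with a log2 change of 1.002 to 1.28 at 19 months and 0.86 to 1.04 at 24 months. It was called at 19 against 3 months in all 9 fits that left out 1 library and all 12 other settings (adjusted p up to 0.0462, limma), and at 24 against 3 months in all 9 and in 10 of 12 (adjusted p up to 0.0589). At 19 against 3 months the number of members called was 2 instead of 1 with the replicate block, where B2m passed (adjusted p = 0.0471), and 1 to 2 with 1 library left out (2 without 19 months replicate 1, where B2m passed). At 24 against 3 months it was 0 with all gene types, and 0 with all gene types without rows listed at 0 (a setting chosen after seeing the data, adjusted p of H2-M3 = 0.0589). It was 2 with a minimum of 5 FPKM and 2 with a robust prior, where Tap2 passed (adjusted p = 0.0477 and 0.0474), and 1 to 2 with 1 library left out (2 without 3 months replicate 3 and without 24 months replicate 2, where Tap2 passed). In the F test over ages it was 0 with all gene types, also 0 once rows listed at 0 were dropped from these, and 1 to 2 with 1 library left out (2 without 19 months replicate 1 and without 24 months replicate 2). With all gene types the number of members at an unadjusted p below 0.05 was 5 at 24 against 3 months and 3 in the F test.

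The log2 change of Tapbp at 19 against 3 months turned to -0.12 with quantile normalization and to -0.10 in the 6 libraries whose low values share a common step, a set chosen after seeing the data; it ran from -0.083 to 0.132 with 1 library left out. That set also moved the median of the members at 24 against 19 months to -0.34 and turned H2-K1 to -0.039 there; the cause was not tested. With 1 library left out, H2-D1 ran from -0.15 to 0.10 at 24 against 3 months, and at 24 against 19 months H2-K1 ran from -0.036 to 0.25, B2m from -0.38 to 0.10, Tap1 from -0.25 to 0.037 and the log2 ratio of H2-D1 to B2m from -0.291 to 0.047; none of these was called. No pairing by replicate number was seen, and the labels state none. Deviations of libraries of different ages correlated across genes at -0.197 to 0.187 with the same number and at -0.23 to 0.164 with different numbers. The replicate block, which uses these numbers, is given for completeness only. Beyond the changes given here, each log2 change of a member kept its direction and its side of the threshold in every setting run.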

Other observations

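Of the 50 genes within 3 places of a member in the RefSeq order of tested genes, members included, 2 that are no members were called. Each was called in 1 of the 3 comparisons. Of all tested genes 1.56% were called at 19 against 3 months, 3.84% at 24 against 3 months and 0.93% at 24 against 19 months. Brd2, a bromodomain protein gene near Tap1 on chromosome 17, rose by a log2 of 0.48 at 24 against 3 months (adjusted p = 0.0460, limma), and was called in 0 of 9 fits that left out 1 library (adjusted p up to 0.148). Mt1, a metallothionein gene near Nlrc5 on chromosome 8, rose by a log2 of 0.94 at 24 against 19 months (adjusted p = 0.0208), and was called in 6 of 9 such fits (lost without 19 months replicates 2 and 3 and without 24 months replicate 4, adjusted p up to 0.124). The fit on all gene types called neither (adjusted p = 0.0955 and 0.197). The nearest tested neighbours of B2m on chromosome 2, Spg11 and Sord, had log2 changes of -0.21 and 0.17 at 19 against 3 months and were not called (adjusted p = 0.626 and 0.616), while B2m stood at 0.73. These genes were chosen for naming after their values were seen.

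Ratios of values below 0.1 FPKM between libraries fell on a common step in 16 of the 36 pairs of libraries, 15 of them among the same 6 libraries: 3 months replicates 2 and 3, 19 months replicates 2 and 3, and 24 months replicates 3 and 4. In these pairs 13.0% to 26.7% of the low rows lay at the commonest ratio, against 1.95% to 3.96% in the other pairs. In those 6 libraries alone H2-M3 had a log2 change of 1.28 at 19 against 3 months and 1.04 at 24 against 3 months (adjusted p = 0.00738 and 0.0147, limma).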
